A study of Mus musculus with 4 samples.

Results

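The collagen genes were followed in ST2 cells, a line of fibroblast-like stromal cells from bone marrow of BALB/c mice, before and after low-intensity pulsed ultrasound (LIPUS), a mild mechanical stimulus. The genes were those with a symbol made of Col, a number, the letter a and a number in the platform annotation, taken only from probe sets with 1 symbol. This gave 42 genes of 18193 on an Affymetrix mouse expression array, carried by 82 probe sets. The rule itself uses symbols and no measured value. There were 4 groups with 1 array each. One held control cells kept at 37 °C, and the other 3 held cells given LIPUS at 25 mW per square cm for 20 min and returned to culture for 0.5, 1 or 3 h. All 4 groups were the same cell line, with no transgene or deletion stated, in serum-containing medium. The labels do not say when control cells were harvested or whether they were handled alongside the transducer. With 1 array per group there was no replicate and no test, so every difference below compares arrays.

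Collagens are secreted proteins whose chains wind around each other in a rigid helix built on a repeat with glycine at every turn. Fibrillar collagens such as types I, III and V make the rope-like fibres of bone, tendon and skin, and type I is the main protein of bone matrix. Others coat those fibres (the FACIT group, whose helices are interrupted), form sheets (type IV in basement membranes, types VIII and X as short-chain networks) or thin beaded filaments (type VI), and a few span the cell membrane. Stromal cells of the marrow make much of this matrix, and the chains are hydroxylated, folded and exported from the endoplasmic reticulum before enzymes outside the cell trim and cross-link them.

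Values are log2 signals, so that a difference of 1 is 2-fold. A floor was set at the median of all values, 5.23, and a gene counted as measured when its brightest probe set lay above the floor on at least 1 array. By that rule 27 of 42 collagen genes were measured, which is 64.3%, against 64.2% of all genes on the array. On single arrays 27 lay above the floor in control cells, 27 at 0.5 h, 26 at 1 h and 27 at 3 h. Over all 18193 genes the counts were 11398, 11426, 11188 and 11408 in the same order, also lowest at 1 h. The collagen under the floor at 1 h only was Col22a1, a FACIT collagen found at tissue junctions. It read 5.38 in control cells, 5.36 at 0.5 h, 5.11 at 1 h and 5.31 at 3 h. The signal of different probe sets depends on their sequence, so levels are not ranked between genes.

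Of 11 fibrillar genes, 8 were measured, namely Col1a1, Col1a2, Col2a1, Col3a1, Col5a1, Col5a2, Col5a3 and Col27a1. The 3 under the floor were Col11a1, Col11a2 and Col24a1. Of 6 type IV genes, 3 were measured, the widely expressed pair Col4a1 and Col4a2 and the X-linked Col4a5. Of 5 type VI genes, Col6a1, Col6a2 and Col6a3 were measured, the chains of the classical type VI molecule. All 3 short-chain genes were measured, Col8a1, Col8a2 and Col10a1. Of 9 FACIT genes, 6 were measured: Col9a1, Col9a3, Col12a1, Col16a1, Col20a1 and Col22a1. The anchoring fibril gene Col7a1, both multiplexins (Col15a1 and Col18a1) and 1 of 4 transmembrane collagens, Col25a1, completed the 27.

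The 15 collagen genes under the floor had signals between 2.04 and 5.09 by their brightest probe set. The highest of them was that of Col11a2 at 0.5 h, just under the floor. The group also held Col4a3, Col4a4 and Col4a6, chains of specialised basement membranes, and the transmembrane genes Col13a1, Col17a1 and Col23a1. The others were the type VI genes Col6a4 and Col6a5, the FACIT genes Col9a2, Col14a1 and Col19a1, and Col26a1. Of the measured genes, 6 stayed within 1 log2 unit of the floor, which were Col22a1, Col2a1, Col9a3, Col20a1, Col15a1 and Col9a1. Their ratios rest on weak signal.

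The label of the cells was checked against markers, by a floor that 64.2% of all genes passed on at least 1 array. All 6 stromal markers were above the floor, 3 of them collagens (Col1a1, Col1a2, Col3a1) and the others Pdgfrb, Vcam1 and Cxcl12. None of 3 haematopoietic markers (Ptprc, Cd68, Adgre1) was. Of 3 endothelial markers only Kdr was, at 5.51 to 5.83, and of 3 epithelial markers only Epcam was, at 7.30 to 7.51 by its brightest probe set, with Cdh1 and Krt18 under the floor. Of 4 chondrocyte markers, Col2a1, Col9a1 and Col10a1 were above the floor and Acan was not.

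**Figure D1:**
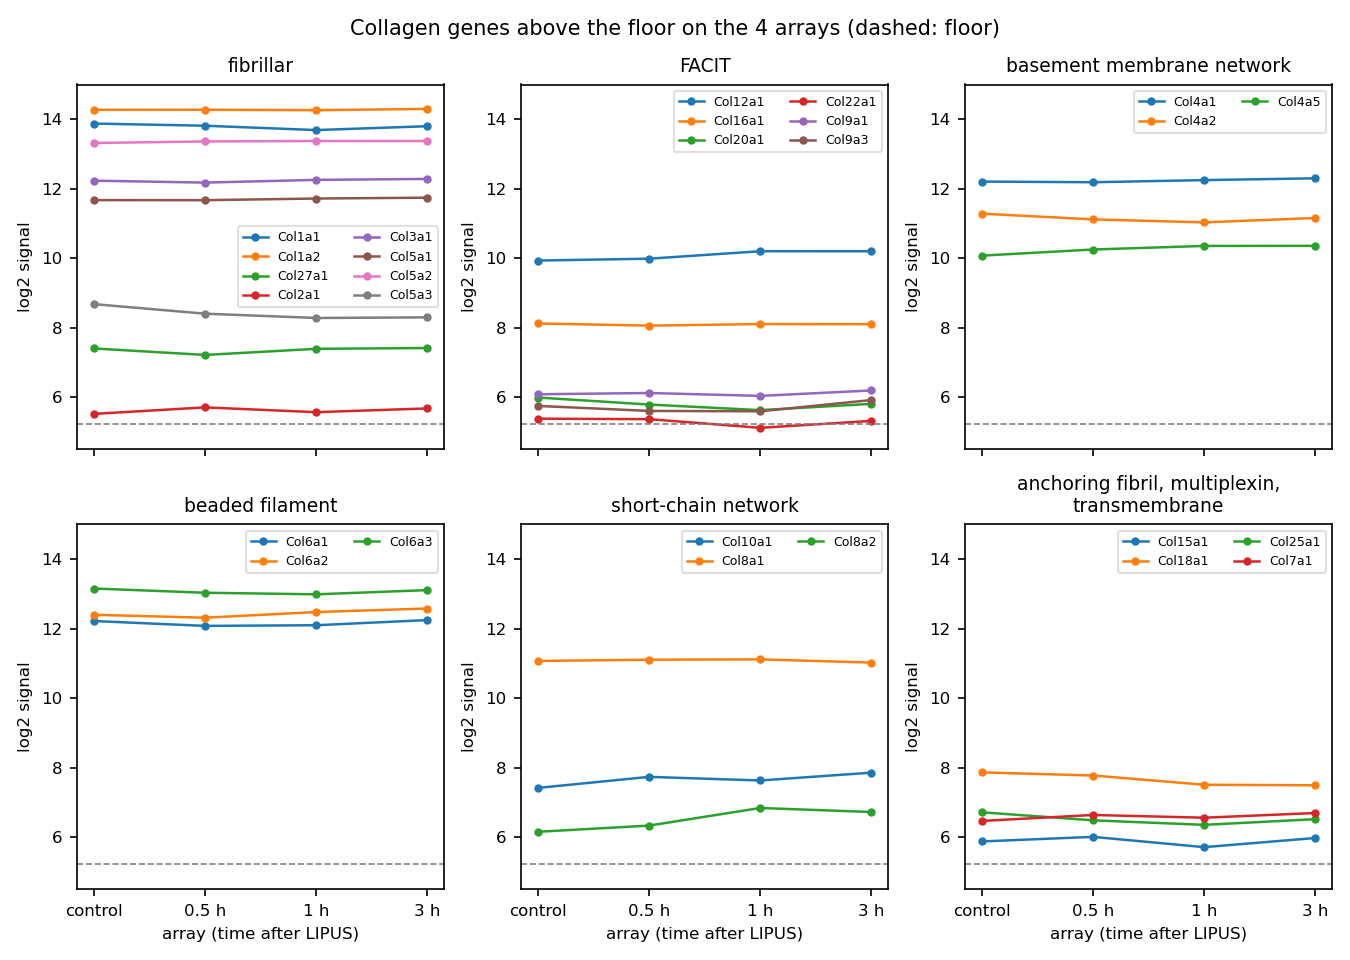
Log2 signal (vertical axis) of the 27 measured collagen genes on the 4 arrays (horizontal axis: control, then 0.5, 1 and 3 h after LIPUS), by class, with the brightest probe set of each gene as 1 line and the floor of 5.23 dashed. The lines are nearly flat, and the largest change over the 4 arrays is that of Col8a2, between 6.15 and 6.84. Heights of different lines are not comparable, since each is a different probe set.

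The question for each time was whether collagen messenger RNA differs from untreated cells within hours of the stimulus. None of the 27 measured genes differed by 2-fold at any time. In RNA from whole cultures, fewer cells that make a transcript and less of it per cell cannot be told apart. At 0.5 h, 0 were higher and 0 lower, where 0.138% and 0% of 11574 genes were. At 1 h the counts were again 0 and 0, against 0.191% and 0% of 11497 genes, and at 3 h 0 and 0, against 0.0691% and 0% of 11574 genes. The median log2 ratio of the collagens was −0.02 at 0.5 h, −0.01 at 1 h and 0.05 at 3 h, while that of all genes was 0.01, 0.02 and 0.01. Between their lowest and highest array the 27 genes moved by a median of 0.20 on the log2 scale, the same as the 0.20 over all 11685 measured genes. Of the 27, 14 moved by less than 0.2, and of the 11685, 5996 did, a similar share. An error could be estimated only as the SD of the ratio between probe sets of 1 gene, taken over 5284 genes at 0.5 h, 5291 at 1 h and 5284 at 3 h, which was 0.108, 0.158 and 0.138. It leaves out the spread between cultures.

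Smaller differences were described with a smaller size, a log2 difference of 0.322. At 0.5 h, 0 of 27 collagens were higher by that size and 0 lower, where 1.37% and 1.29% of all genes were. At 1 h, 1 was higher (3.70% of the 27, against 5.32% of all genes) and 4 were lower (14.8%, against 4.25%). At 3 h, 2 were higher (7.41%, against 3.26%) and 2 lower (7.41%, against 2.93%). The 6 genes concerned were Col8a2 and Col10a1 on the higher side and Col5a3, Col18a1, Col20a1 and Col25a1 on the lower side. In counts this small, 1 gene is 3.70% of the list.

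**Figure D2:**
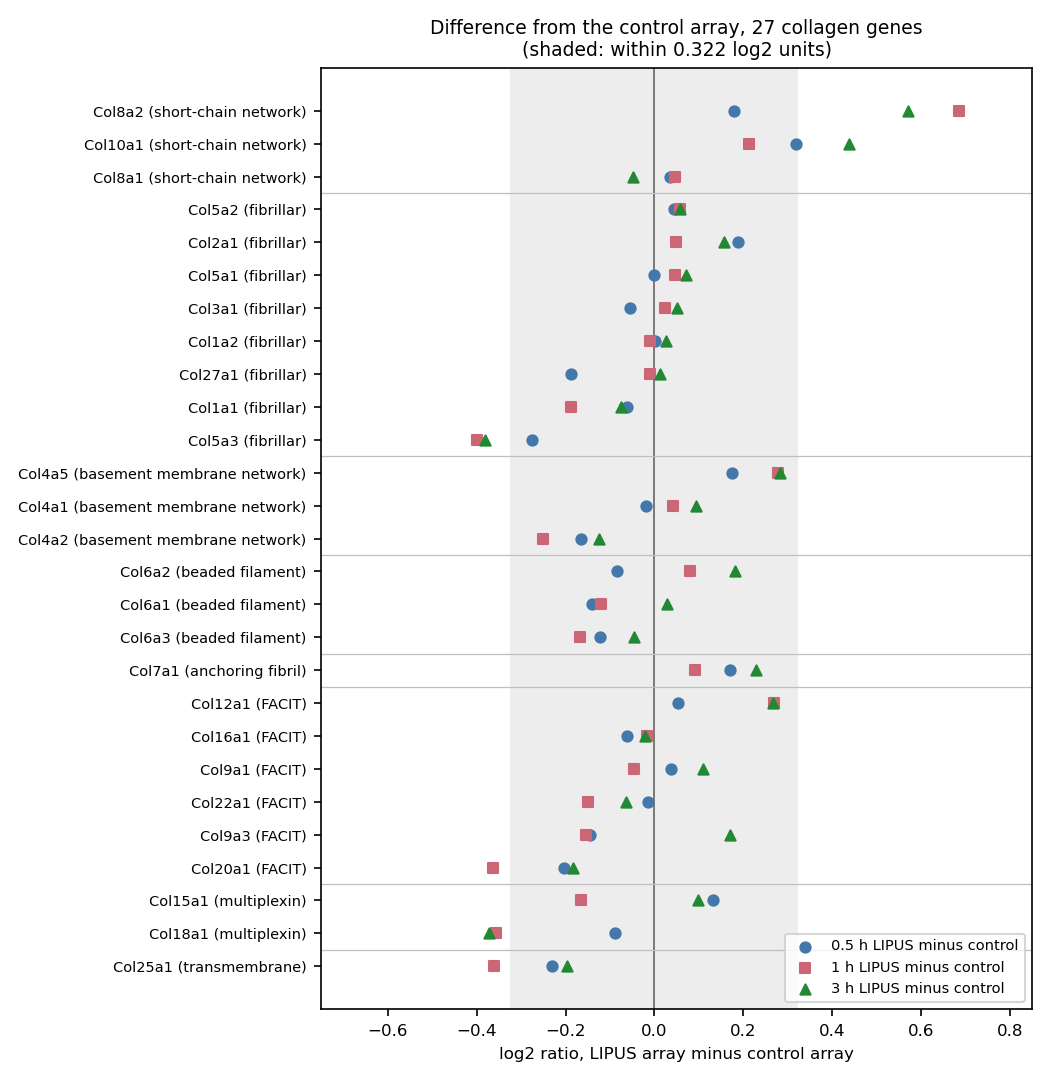
Log2 ratio of each LIPUS array to the control array (horizontal axis) for the 27 measured collagen genes (rows, by class), with 0.5 h as circles, 1 h as squares and 3 h as triangles. The shaded band marks differences within 0.322. Most points lie inside it, Col8a2 reaches 0.69 at 1 h on the right, and Col5a3 reaches −0.40 at 1 h on the left.

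Col8a2 encodes a chain of type VIII collagen, a short-chain network protein known from vessel walls and the cornea. Its signal was 6.15 in control cells, 6.33 at 0.5 h, 6.84 at 1 h and 6.72 at 3 h. The 1 h and 3 h arrays lay above the control and 0.5 h arrays. At 1 h it was 1.61-fold higher than in control cells, a log2 ratio of 0.69, and it was the only collagen past 1.5-fold by its brightest probe set, where 0.948% of all genes were higher by that size. No collagen was 1.5-fold higher at 0.5 h or 3 h, where 0.372% and 0.346% of all genes were, and none was lower by that size at 0.5, 1 or 3 h, where 0.104%, 0.331% and 0.181% were. At 3 h Col8a2 was 1.48-fold higher, at 0.57. The step of 0.51 between 0.5 h and 1 h does not use the control array. By brightest probe sets Col8a2 was the 1 collagen higher by 0.322 or more in that step, against 3.31% of all genes. No collagen was lower by that size, where 2.09% of all genes were. A dim probe set of Col1a2 read 6.97 at 0.5 h and 7.63 at 1 h, a larger step than that of Col8a2. Only 1 probe set carries Col8a2, so no other value on the array checks it. Its control value lay within 1 log2 unit of the floor, and with the floor at the 75th percentile the gene was not measured.

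Col8a1, its partner chain, behaved otherwise. Its brightest probe set read 11.07 in control cells, 11.10 at 0.5 h, 11.11 at 1 h and 11.02 at 3 h. All 3 of its probe sets stayed between 0.02 and 0.05 above control cells at 1 h, and between 0.05 and 0.08 below at 3 h. The remaining short-chain gene, Col10a1, is the collagen of hypertrophic cartilage in the growth plate. It had 7.41 in control cells, 7.73 at 0.5 h, 7.63 at 1 h and 7.85 at 3 h. All LIPUS arrays lay above the control array, by 0.318, 0.21 and 0.44, and the value at 3 h was 1.36-fold. Col10a1 too rests on 1 probe set.

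Among fibrillar genes the brightest probe sets of the major chains differed little between arrays. Dimmer probe sets differed more, with ratios of 0.69 for Col1a2 and −0.36 for Col5a1 at 1 h. At 3 h those of Col3a1 and Col5a2 gave 0.30 and 0.35. Col1a1 and Col1a2 encode the chains of type I collagen. Col1a1 read 13.88 in control cells, 13.81 at 0.5 h, 13.69 at 1 h and 13.80 at 3 h. Its ratios were −0.06, −0.19 and −0.08, while its other probe set gave −0.17, −0.01 and 0.13, so the probe sets differ in which array is lowest and in sign at 3 h. Col1a2 read 14.27, 14.27, 14.26 and 14.30 in the same order and moved by 0.04 in all, the least of the 27. These values lay close to the top of the scale, 14.48 on each array, and whether that compressed the ratios was not tested. Col3a1, the type III chain of elastic tissues and early repair, read 12.23, 12.18, 12.25 and 12.28. Col5a2 read 13.32, 13.36, 13.37 and 13.37, and Col5a1 between 11.67 and 11.74, the chains of type V collagen that seed and limit the width of type I fibrils.

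Col5a3, a less common type V chain, was the fibrillar gene with the lowest ratios. It read 8.68 in control cells, 8.40 at 0.5 h, 8.28 at 1 h and 8.29 at 3 h. All LIPUS arrays lay below the control, with ratios of −0.28, −0.40 and −0.38, so that at 1 h the level was 0.759 times that of control cells. Only 1 of the 2 probe sets of Col5a3 was above the floor. Col2a1, the collagen of cartilage, read 5.52, 5.70, 5.56 and 5.67, close to the floor, and Col27a1, also known from cartilage, stayed between 7.21 and 7.41. The median ratio of the 8 fibrillar genes was −0.03, 0.01 and 0.04 at 0.5, 1 and 3 h.

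The multiplexins sit in basement membrane zones and carry cleavable ends. Col18a1, the parent of endostatin, read 7.86 in control cells, 7.77 at 0.5 h, 7.50 at 1 h and 7.49 at 3 h. Its ratios of −0.36 at 1 h and −0.37 at 3 h came with −0.19 at both times from its other probe set. Col15a1 read 5.87, 6.003, 5.71 and 5.97 and so had ratios of 0.13, −0.16 and 0.10 near the floor. Col25a1, a transmembrane collagen known from brain and from muscle innervation, read 6.71, 6.48, 6.35 and 6.51 by 1 probe set. It was below control cells on each LIPUS array, by as much as −0.36 at 1 h. Col7a1, the chain of the anchoring fibrils under epithelia, read 6.46, 6.63, 6.56 and 6.69.

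Type IV chains did not move as 1 group. Col4a1 and Col4a2 are neighbours on chromosome 8 and their chains assemble in the same molecule. Col4a1 stayed between 12.19 and 12.30 and had ratios of −0.02, 0.04 and 0.09 at 0.5, 1 and 3 h. Col4a2 read 11.28 in control cells, 11.12 at 0.5 h, 11.03 at 1 h and 11.16 at 3 h. Its ratios were −0.17, −0.25 and −0.12. The second probe set of Col4a1 gave −0.10, −0.18 and 0.01, nearer to Col4a2 than the brightest was. Col4a5 had 10.07 in control cells, 10.25 at 0.5 h, 10.35 at 1 h and 10.35 at 3 h. Both of its probe sets were higher at 1 h, by 0.28 and 0.27, the closest match between probe sets at that time. Its neighbour on the X chromosome, Col4a6, stayed under the floor on every array.

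Each type VI chain had its lowest value at 0.5 h or 1 h. Col6a1 read 12.22 in control cells, 12.08 at 0.5 h, 12.10 at 1 h and 12.25 at 3 h. Col6a3, the large chain that carries the cleaved fragment endotrophin, read 13.15, 13.03, 12.99 and 13.11. Col6a2, next to Col6a1 on chromosome 10, read 12.40, 12.31, 12.48 and 12.58. All 3 were below control cells at 0.5 h, by −0.14, −0.12 and −0.08 for Col6a1, Col6a3 and Col6a2, which is about the size of the SD between probe sets. At 3 h their ratios were 0.03, −0.05 and 0.18. The other probe set of Col6a2 gave −0.24, −0.25 and −0.02 at 0.5, 1 and 3 h, against −0.08, 0.08 and 0.18 by the brightest, so its sign at 1 h and 3 h depends on the probe set.

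Among FACIT genes, Col12a1, a fibril-coating collagen of tendon and bone surfaces, read 9.93 in control cells, 9.98 at 0.5 h, 10.20 at 1 h and 10.20 at 3 h. Its ratio was 0.27 at both later times, but its other measured probe set gave −0.13 and 0.03. Col20a1 read 5.99, 5.78, 5.62 and 5.80, and both measured probe sets were lower at 1 h, by −0.36 and −0.25. Col16a1 stayed between 8.06 and 8.12 and Col9a1, another type IX chain, between 6.03 and 6.19. Col9a3, a chain of cartilage type IX collagen, had its highest value at 3 h, 5.91 against 5.59 at 1 h. By brightest probe sets it was the 1 collagen higher by 0.322 or more in that step, where 1.74% of all genes were. None was lower by that size, where 2.36% were. A dimmer probe set of Col5a1 also rose by more than that size, from 9.30 at 1 h to 9.65 at 3 h. The median ratio of the 6 FACIT genes was −0.04, −0.10 and 0.04.

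Between 1 h and 3 h the collagens differed by small amounts, mostly above 0. The step was above 0 for 21 of 27 genes, 77.8%, and below 0 for 6, while 45.0% of 11494 genes were above 0. Its median was 0.09 for the collagens and −0.01 for all genes. The step was 0.32 for Col9a3, 0.26 for Col15a1, 0.22 for Col10a1, 0.18 for Col20a1 and 0.16 for Col25a1. It was 0.16 for Col9a1, 0.15 for Col6a1, 0.14 for Col7a1, 0.13 for Col4a2, 0.12 for Col6a3 and 0.11 for Col1a1 and Col2a1. Below 0 were Col8a2 at −0.12, Col8a1 at −0.09, and Col18a1, Col5a2, Col12a1 and Col16a1 between −0.02 and −0.0005. These are steps of brightest probe sets. Another measured probe set of Col20a1 read 5.62 at 1 h and 5.60 at 3 h, and that of Col1a1 read 11.87 and 12.00. Against the sign of the brightest, that of Col4a5 read 8.93 and 8.84 and the dim one of Col1a2 7.63 and 7.31. In the other direction, that of Col12a1 read 7.85 and 8.01 and that of Col5a2 10.78 and 10.80, so these signs depend on the probe set. The SD of this step between probe sets of 1 gene was 0.107 over 5281 genes. From 0.5 h to 1 h the median step was −0.01, with 12 genes above 0 and 15 below. Under other floors, scalings and choices of probe set the later step had a median between 0.03 and 0.11.

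Probe sets of the same gene were the main check on these ratios, and 13 of the 27 genes had at least 2 above the floor. The difference between the lowest and highest ratio of a gene had a median of 0.10 at 0.5 h, 0.20 at 1 h and 0.20 at 3 h. Signs differed within a gene for 4 of 13 genes at 0.5 h, 6 at 1 h and 3 at 3 h. The widest was Col1a2 at 1 h. Its 2 bright probe sets gave −0.01 each, whereas a dim one read 6.94 in control cells, 6.97 at 0.5 h, 7.63 at 1 h and 7.31 at 3 h, a ratio of 0.69 at 1 h and 0.37 at 3 h. Col5a1 went the other way, with 0.05 from the brightest probe set and −0.33 and −0.36 from the others at 1 h. The dimmer probe set of Col5a2 gave 0.32 at 1 h and 0.35 at 3 h, and that of Col3a1 0.22 and 0.30. Of 43 measured collagen probe sets, 0 were past 2-fold at any time, against 0.236% of 20748 measured probe sets with 1 symbol. Past 1.5-fold were 2, or 4.65%, against 2.03%, namely that of Col8a2 and the dim one of Col1a2. Where on the transcript each probe set lies was not used here.

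**Figure D3:**
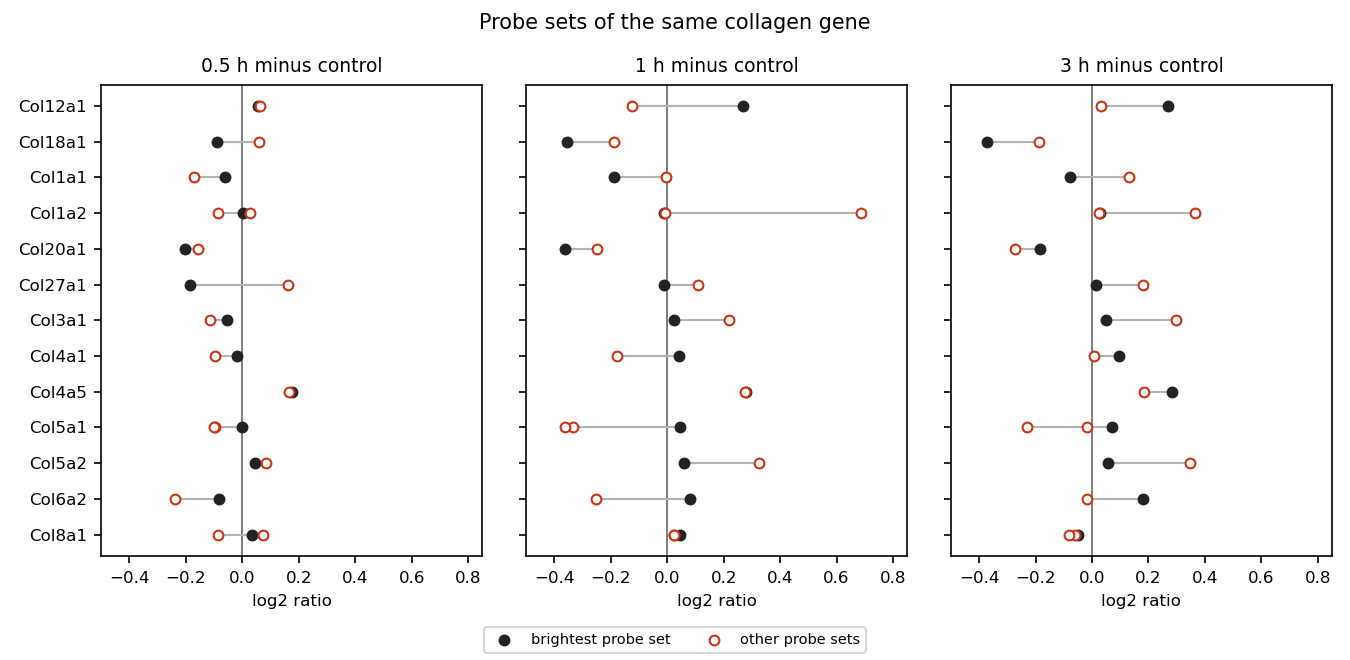
Log2 ratio to the control array (horizontal axis) at 0.5, 1 and 3 h for the 13 collagen genes with at least 2 probe sets above the floor (rows). Filled points are the brightest probe set of a gene and open points the others. The probe sets lie closest together at 0.5 h, and at 1 h those of Col1a2 run from −0.01 to 0.69.

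Quality values moved with time on the same arrays. The 12 probe sets for added poly-A control transcripts differed from the control array by a median of −0.05 at 0.5 h, 0.28 at 1 h and 0.41 at 3 h. The 5′ minus 3′ signal of Gapdh differed by −0.06, −0.16 and −0.16 and that of Actb by −0.03, −0.13 and −0.09. The part of these in the collagen ratios was not tested.

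The upstream sequences of 4 genes are shown for 3 collagens with large ratios and for the type I chain Col1a2, whose bright probe sets moved little and whose dim one was at 0.69 at 1 h. Each is the 250 bases before the RefSeq start on GRCm38.p6, 5′ to 3′ along the gene. Col8a2 lies at chr4:126286544-126286793 on the plus strand, Col10a1 at chr10:34389731-34389980 on the plus strand, Col5a3 at chr9:20815068-20815317 on the minus strand and Col1a2 at chr6:4505368-4505617 on the plus strand. Capitals mark matches, on either strand, to the motifs described after them.
Col8a2: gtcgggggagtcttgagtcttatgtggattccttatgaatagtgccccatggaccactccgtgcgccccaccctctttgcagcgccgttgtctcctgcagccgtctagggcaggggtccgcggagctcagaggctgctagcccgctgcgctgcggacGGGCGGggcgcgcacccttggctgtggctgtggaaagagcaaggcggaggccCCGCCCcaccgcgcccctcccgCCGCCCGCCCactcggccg
Col10a1: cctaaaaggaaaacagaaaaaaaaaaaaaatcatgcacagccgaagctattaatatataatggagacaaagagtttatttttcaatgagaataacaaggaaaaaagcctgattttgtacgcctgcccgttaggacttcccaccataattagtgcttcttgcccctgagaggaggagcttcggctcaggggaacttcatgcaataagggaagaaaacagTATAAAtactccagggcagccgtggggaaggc
Col5a3: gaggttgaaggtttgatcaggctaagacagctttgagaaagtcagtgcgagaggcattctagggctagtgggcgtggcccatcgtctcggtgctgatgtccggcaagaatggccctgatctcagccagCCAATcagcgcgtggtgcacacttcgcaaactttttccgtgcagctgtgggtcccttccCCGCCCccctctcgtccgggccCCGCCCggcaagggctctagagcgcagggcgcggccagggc
Col1a2: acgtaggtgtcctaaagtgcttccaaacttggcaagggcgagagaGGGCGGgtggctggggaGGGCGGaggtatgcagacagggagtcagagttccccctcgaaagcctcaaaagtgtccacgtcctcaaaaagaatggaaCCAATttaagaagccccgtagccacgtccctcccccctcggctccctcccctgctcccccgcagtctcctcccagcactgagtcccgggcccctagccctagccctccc

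The motifs were the TATA box (TATAAA), the CCAAT box (CCAAT), the GC box (GGGCGG), the AP-1 site (TGANTCA) and the heat shock element (GAANNTTC). A match is only a run of letters, and matches of the GC box near the start of Col8a2 overlap each other. Col8a2 held 4 GC boxes, the farthest 93 bases upstream, and no match to the others. Col10a1 held 1 TATA box, 32 bases upstream, and nothing else. Col5a3 held 1 CCAAT box and 2 GC boxes, and so did Col1a2. RefSeq starts were found for 33 of 42 collagen genes, with 36 windows. The GC box was in 58.3% of those windows, against 32.7% of 32851 promoters, the CCAAT box in 36.1% against 33.8%, and the TATA box in 13.9% against 12.4%. The AP-1 site, in 6.75% of all promoters, was in 1 collagen window, that of Col6a1. The heat shock element, in 6.69% of all promoters, was in 1, that of Col4a5. Neither gene differed by 0.322 at any time.

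Genes that build and handle collagen were followed in 5 lists beside the collagens. No measured member of any list was past 2-fold at any time. Of 19 genes for folding and modification, 18 were measured, and their median ratio was 0.03, −0.03 and −0.01 at 0.5, 1 and 3 h. At 1 h, 1 was higher by 0.322 or more and 3 lower, where 5.32% and 4.25% of all genes were. At 3 h, 1 was higher and 1 lower, where 3.26% and 2.93% were. P4hb, the disulfide isomerase that is also the shared subunit of prolyl hydroxylase, read 12.60 in control cells, 12.39 at 0.5 h, 11.96 at 1 h and 12.25 at 3 h. Its ratio of −0.63 at 1 h was past 1.5-fold, a size at which 0.331% of all genes were lower, and it rests on 1 probe set.

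P3h1, a prolyl hydroxylase of the same pathway, had ratios of −0.46 at 1 h and −0.29 at 3 h, and its second probe set gave −0.33 and −0.44. Colgalt1, which adds galactose to hydroxylysine, had −0.36 at 1 h, with −0.42 from its second probe set. Plod2, the lysyl hydroxylase that directs a stable kind of cross-link, read 8.83 in control cells, 8.97 at 0.5 h, 9.15 at 1 h and 9.24 at 3 h. Both probe sets were higher at 3 h, by 0.41 and 0.40. Serpinh1, the collagen chaperone HSP47, read 12.80, 12.83, 12.87 and 12.95, and its other probe set gave ratios of 0.12, 0.04 and 0.09. P4ha1, the catalytic subunit of prolyl hydroxylase, had 0.04, −0.05 and 0.16, and its other probe set gave 0.00, −0.26 and −0.04.

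The other lists held 1 gene that differed by 0.322 or more by its brightest probe set. It was Pcolce2, an enhancer of procollagen cleavage, which read 8.47 in control cells, 8.60 at 0.5 h, 8.80 at 1 h and 8.81 at 3 h. It was 1 of 8 measured genes for processing and cross-linking and was higher by that size at 1 h and 3 h, where 5.32% and 3.26% of all genes were. The medians of the 8 were −0.03, −0.07 and −0.02. Of 7 export genes 6 were measured, of 12 turnover genes 8 and of 9 receptors 6, and none differed by 0.322 at any time by its brightest probe set. Dimmer probe sets of 5 of them did, chosen for mention after their values were seen. Those of Timp2, an inhibitor of matrix enzymes, gave −0.51 and −0.39 at 1 h, and that of the integrin chain Itgb1 gave −0.39 at 1 h and −0.33 at 3 h. That of the collagen receptor Ddr1 gave −0.40 and that of the integrin chain Itga1 0.40 at 1 h, and that of Mia3, an export receptor, −0.35 at 0.5 h. The export medians were 0.02, 0.09 and 0.08, and those of turnover genes −0.01, 0.03 and 0.03. Those of receptors were 0.09, 0.16 and 0.14, from 6 genes at 0.5 h and 4 at 1 h and 3 h. The receptor median at 0.5 h included Itga2 and Gp6, at 5.28 and 5.33 there and under the floor on the other arrays. Their ratios at 0.5 h could only be above 0. The enzymes Mmp3, Mmp8 and Mmp13, which cut matrix proteins, lay under the floor, while Mmp14, a membrane-bound collagenase, had ratios of −0.04, 0.06 and 0.08. Of its dimmer probe sets, 1 gave −0.02, −0.19 and −0.10 and the other 0.14, 0.25 and 0.22. Lox, which cross-links collagen, had −0.05, 0.09 and 0.11, and its other measured probe set gave −0.09, −0.02 and 0.05.

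**Figure D4:**
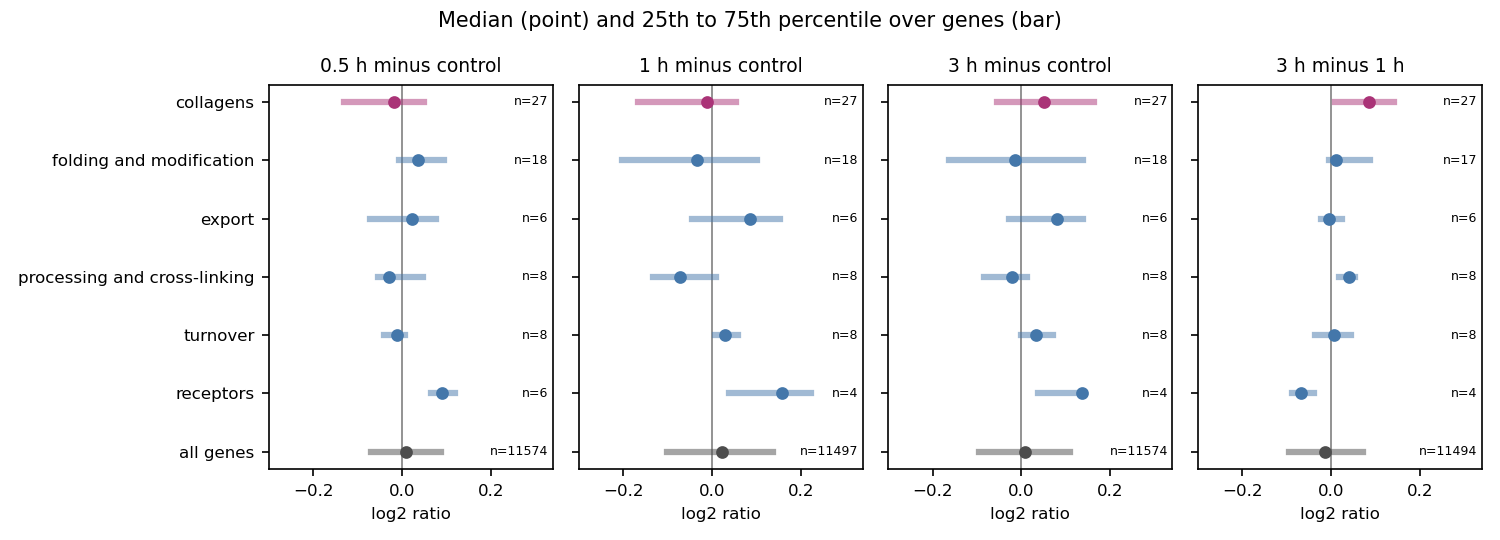
Median log2 ratio (points) and 25th to 75th percentile over genes (bars) for the 27 measured collagens, the 5 lists of collagen-handling genes and all measured genes, in 4 comparisons (panels; horizontal axis: log2 ratio). The medians of the collagens lie between −0.02 and 0.05 against control cells and at 0.09 for 3 h minus 1 h, where that of all genes is −0.01.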

How the data were processed

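The deposited table holds log2 signals, 1 for every probe set on each array. The log base was read from the range of the values, and the summary and scaling methods are not given in the sources used here. Per the labels' protocols, complementary RNA for the arrays was made from total RNA with a 3′ transcription kit. Of 45101 probe sets, 34945 had 1 symbol in the platform annotation and were used. Those with no symbol, 932 with several symbols and control probe sets were left out. Symbols were updated through the Entrez number, which matched 34741 and changed no collagen symbol. Each of 18193 genes was represented by the probe set with the highest mean. Values under the median of all values were raised to that floor, and a ratio needed 1 of its 2 arrays above it. Calls were sizes of 2-fold, with 1.25-fold (0.322 on the log2 scale) as a description. The size rule was tested on simulated data with changes put only in genes more than 2 log2 units above the floor. It was not tested for weaker genes such as Col8a2, Col20a1 and Col25a1. Depth does not apply to arrays, whose number limits the precision. The collagens whose array values are printed were Col1a1, Col1a2, Col3a1, those past 1.25-fold and the extremes of each class. Pathway genes past 1.25-fold were named, with Serpinh1 and P4ha1, and other names were added after values were seen. Members and lists were chosen with earlier results of these data known. Protein sequences were not used here. Python 3.11.15, numpy 2.4.6, pandas 2.3.3, R 4.3.3 and limma 3.58.1 were used.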

Additional observations from a re-analysis of the deposited data

How the results depend on the processing

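No paired analysis was possible because each group held 1 array, and for the same reason no replicate could be left out. The median of the collagens stayed between −0.06 and −0.00 at 0.5 h, between −0.07 and 0.01 at 1 h and between 0.03 and 0.08 at 3 h over every alternative run. Of 617 recomputed ratios of single collagens, 587 moved by less than the SD between probe sets and 30 by more, 20 of these with the mean of the other 3 arrays as control. With the mean over probe sets the ratio at 1 h was −0.22 for Col5a1, −0.09 for Col6a2, 0.22 for Col1a2 and 0.07 for Col12a1, and with the 75th percentile as floor Col10a1 was at 0.13 at 3 h and Col18a1 at −0.14 at 1 h. Against the other 3 arrays Col8a2 was at −0.24, 0.44 and 0.28 at 0.5, 1 and 3 h, and Col5a3 at −0.02, −0.18 and −0.16. No collagen passed 2-fold under another floor, scaling, choice of probe sets or control. With 1.5-fold as the size, 1 was higher at 1 h, and with 0.322 on the log2 scale 1 was higher and 4 lower at 1 h, and 2 higher and 2 lower at 3 h.

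Genes counted as measured numbered 17 with the floor at the 75th percentile and 42 with none, and 43 probe sets were above the floor when each counted on its own. The counts past 0.322 are small and changed with most settings. At 0.5 h, 2 were higher with the floor at the 25th percentile, 3 with none and 1 after median centring, which lifts Col10a1 over the size. At 1 h, 3 were higher with the 25th percentile, with no floor and with each probe set on its own, and 0 with the 75th. Lower at 1 h were 1 with the 75th percentile, 2 with the mean over probe sets and 6 with each probe set on its own. The count was 0 when the other 3 arrays together served as control. At 3 h, higher counts were 0 with the 75th percentile, 4 with each probe set and 0 against the other arrays, and lower counts were 1 with the 75th percentile, 1 with the mean over probe sets and 0 against the other arrays. The short-chain median was 0.0456 at 1 h and −0.0478 at 3 h with each probe set on its own, where the 3 probe sets of Col8a1 outnumber the others, and 0.0362, 0.0497 and 0.261 at 0.5, 1 and 3 h against the other arrays. The settings for the steps between times and for the lists were chosen after seeing the data. Of 135 list medians 1 moved by more than the SD between probe sets. It was that of the receptors at 3 h, at −0.01 with each probe set on its own. That SD was larger than most of the medians, so a change of sign could stay within it. The export median at 0.5 h went from 0.02 to −0.03 with each probe set on its own. The receptor median at 1 h went from 0.16 to 0.03 with no floor and 0.04 with the mean over probe sets.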

Other observations

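Of the stromal markers that are no collagens, Cxcl12, the chemokine that holds haematopoietic cells in the marrow, was higher by all 3 of its probe sets at 3 h, by 0.25, 0.55 and 0.54, with the brightest at 13.61 there and 13.36 in control cells. Vcam1, an adhesion molecule of the same niche, gave 0.36 at 3 h by its brightest probe set and −0.05 and −0.18 by its others. Pdgfrb, a growth factor receptor of mesenchymal cells, gave 0.10 and 0.14.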
